A study of Mus musculus with 8 samples.

Results

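Genes of skeletal muscle were followed on 8 arrays of mouse colon and rectum mucosa. They comprised 40 symbols chosen for their function, of which 38 had a probe that could be named and 35 were tested, out of 16306 named and 12713 tested genes. Neb and Cacna1s had no named probe, and Casq1, Ttn and Ampd1 were not tested because they were well above background on fewer than 4 arrays. Of the 35 tested, 21 were called higher in rectum than in colon at an adjusted p under 0.05 (limma), against 15.1% of all tested genes. For 32 of 35 the highest level of all was on the array of rectum from IL18ko control mice, against 5.88% of all tested genes. The fast fibre genes differed between the tissues by a median of 4.01 on the log2 scale.

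Skeletal muscle contracts when myosin heavy and light chains pull on thin filaments of actin, and troponin and calcium decide when they may do so. Fast and slow fibres carry different versions of these proteins, and each version has its own gene. The wall of the gut is made of smooth muscle, which uses other myosin and actin genes, whereas the external anal sphincter and the muscles of the pelvic floor around the end of the rectum are skeletal.

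Each array carried labelled RNA pooled from 5 mice, with 1 pool for each combination of tissue, genotype and housing, so that no group was replicated. Wild-type (WT) mice and IL18ko mice, which lack the gene for the cytokine interleukin 18, grew up as 5 brothers to a cage until 10 to 12 weeks of age. Stressed mice, 3 of each 5, were then housed alone, and the labels give that isolation as 16 days in one place and as 8 days in another. One text sets them against group-housed brothers, and the other against mice before isolation. Mucosa of the colon was taken between 2.5 and 3.5 cm from the ileocecum, and the rectum was taken as 7 mm in total length from the anus. The study asked how the stress of isolation alters gene expression in these tissues. Whether 1 set of mice gave both tissues is not stated.

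Levels are given as log2 of the background-corrected intensity relative to the 75th percentile of the array, so that a difference of 1 is a doubling. Values on all 8 arrays are given first for colon and then for rectum, each in the order WT control, WT stress, IL18ko control, IL18ko stress. A probe's intensity depends on its sequence, so levels are compared between arrays and never between genes. Between 62.2% and 66.4% of spots were well above background, and 0 were saturated. Il18 itself was at 2.68 to 5.81 on the 4 WT arrays and not well above background on the 4 IL18ko arrays. Colon epithelium genes, such as the keratins Krt8 and Krt19, were well above background on all 8 arrays, and the median of 11 such genes lay within 0.11 of their mean on every array. All colon arrays shared 1 slide and all rectum arrays another, so slide and tissue cannot be told apart.

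Promoters of 27 of the 40 genes were listed by RefSeq (GRCm38.p6), each 300 bases long, from 250 before to 50 after the start of the gene. The E-box CANNTG is the letters bound by the MyoD family of myogenic factors, and MEF2 sites are bound by factors that work with them. Read on both strands, an E-box stood in 22 of the 27 promoters and in 72.1% of all 27025 promoters listed. Its form CAGCTG, a subset of those E-boxes, stood in 13 of 27 against 16.1% of all promoters. A MEF2 match stood in 5 of 27 against 3.26%, and 3 of 27 held both an E-box and a MEF2 match against 2.47%. A CArG match, the letters of serum response factor, stood in 4 of 27 against 1.57%, and the MCAT element CATTCC in 10 of 27 against 14.6%. These are matches of letters in one window, and binding was not measured. The promoters of 5 genes described further on are shown with E-boxes and MEF2 matches in capitals. They set genes that tracked one another on the arrays (Myh4, Tnnc2, Mylpf) beside Ckm and Eno3. The tissue differences of Mylpf and Ckm did not pass, and Eno3 did not track the others within rectum.
Myh4, chr11:67237562-67237861, plus strand, GRCm38.p6: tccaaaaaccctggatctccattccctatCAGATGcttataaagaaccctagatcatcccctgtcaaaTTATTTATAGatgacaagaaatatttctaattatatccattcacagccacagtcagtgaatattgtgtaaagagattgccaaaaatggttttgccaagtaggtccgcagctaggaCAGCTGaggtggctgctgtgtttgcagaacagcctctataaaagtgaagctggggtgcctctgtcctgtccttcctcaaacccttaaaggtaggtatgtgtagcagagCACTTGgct
Tnnc2, chr2:164779685-164779984, minus strand, GRCm38.p6: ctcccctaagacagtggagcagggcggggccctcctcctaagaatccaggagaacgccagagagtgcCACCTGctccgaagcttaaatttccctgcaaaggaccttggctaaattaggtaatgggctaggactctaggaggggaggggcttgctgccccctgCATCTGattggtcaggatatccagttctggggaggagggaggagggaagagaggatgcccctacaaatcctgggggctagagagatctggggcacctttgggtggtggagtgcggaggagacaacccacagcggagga
Mylpf, chr7:127211358-127211657, plus strand, GRCm38.p6: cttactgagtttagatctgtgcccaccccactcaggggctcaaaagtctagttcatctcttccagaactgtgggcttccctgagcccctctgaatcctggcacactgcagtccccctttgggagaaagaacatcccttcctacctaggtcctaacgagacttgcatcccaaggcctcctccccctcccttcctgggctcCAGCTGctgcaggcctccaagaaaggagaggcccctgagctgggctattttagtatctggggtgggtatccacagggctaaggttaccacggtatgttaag
Ckm, chr7:19410844-19411143, plus strand, GRCm38.p6: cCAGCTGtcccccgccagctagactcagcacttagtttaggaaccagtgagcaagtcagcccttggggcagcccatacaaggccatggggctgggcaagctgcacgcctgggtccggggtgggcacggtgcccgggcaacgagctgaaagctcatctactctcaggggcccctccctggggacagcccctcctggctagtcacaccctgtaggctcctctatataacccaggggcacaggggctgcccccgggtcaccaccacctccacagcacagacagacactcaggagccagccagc
Eno3, chr11:70656926-70657225, plus strand, GRCm38.p6: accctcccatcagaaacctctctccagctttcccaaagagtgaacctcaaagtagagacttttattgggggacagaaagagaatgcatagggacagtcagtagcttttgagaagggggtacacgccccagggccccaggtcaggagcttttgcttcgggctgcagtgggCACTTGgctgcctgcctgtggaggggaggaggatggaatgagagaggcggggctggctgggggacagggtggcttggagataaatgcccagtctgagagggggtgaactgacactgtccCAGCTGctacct
Myh4 is the one of the 5 with a MEF2 match in capitals beside its 3 E-boxes, and Eno3 holds 2 E-boxes, 1 of them CAGCTG.

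**Figure D1:**
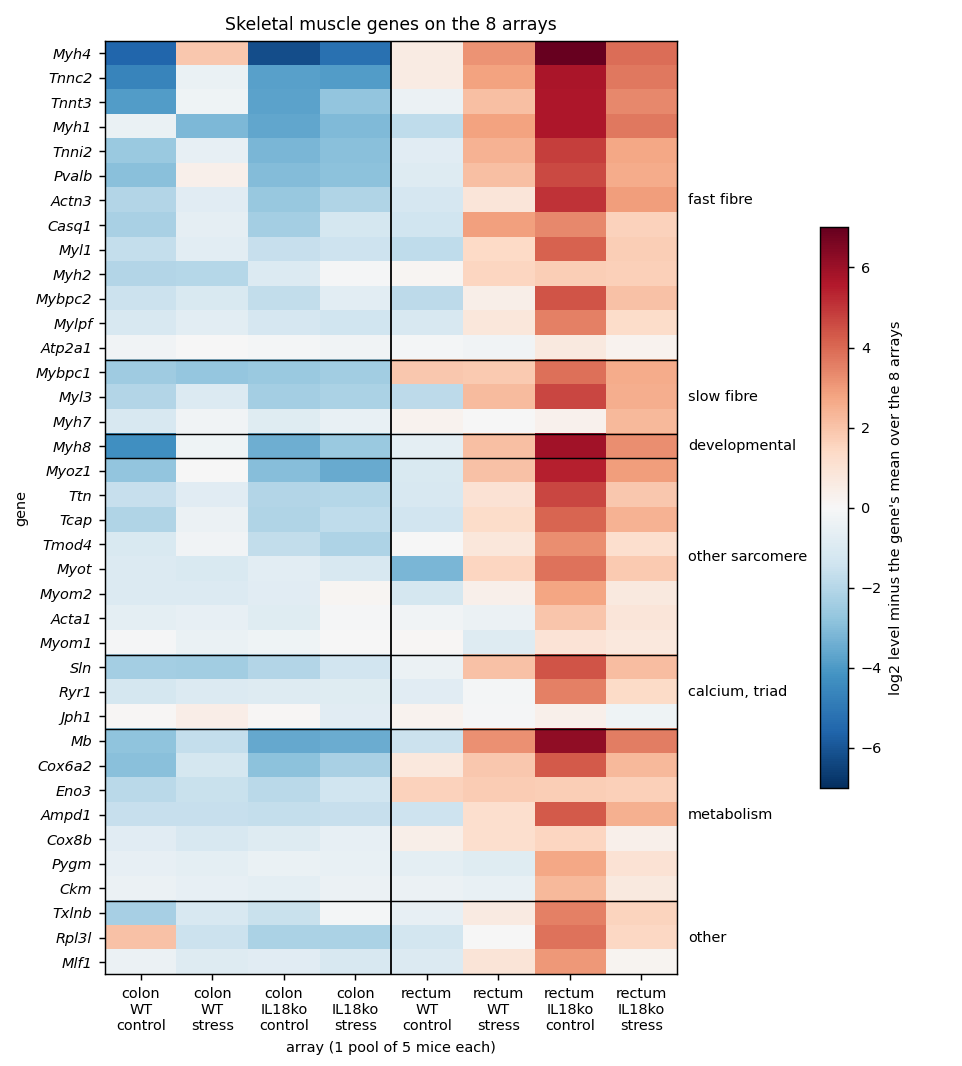
Level of each of 38 skeletal muscle genes (rows, grouped by role) on each of the 8 arrays (columns, 1 pool of 5 mice each), as log2 level minus that gene's mean over the 8 arrays, with red above and blue below the mean. The column of IL18ko control rectum is the reddest in nearly all rows, and Eno3 is equally red in all 4 rectum columns. Signals that were not well above background are drawn as measured.

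The first comparison asks which of these genes differ between the end of the gut and the middle colon. Heavy chains, troponins, myoglobin and the calcium pump regulator sarcolipin were higher in rectum. Over the 4 rectum minus colon differences, 1 for each mouse group, 21 of 35 genes rose at an adjusted p under 0.05 and 0 fell, where 15.1% of all tested genes were called higher (limma, Benjamini-Hochberg over all probes). The median difference was 2.59 against 0.05 over all genes, and single genes ran from 0.09 to 7.54. By role, 8 of 12 fast fibre genes rose (median 4.01), 3 of 3 slow fibre genes (3.80), 3 of 7 other sarcomere genes (1.95), 1 of 3 calcium and triad genes (1.97), 4 of 6 metabolic genes (2.54), and Myh8. In bulk RNA, more cells of a type and more RNA per cell cannot be told apart. The groups nonetheless overlapped for most genes. While 24 genes were higher in 4 of 4 pairs, just 11 of 35 had every rectum array above every colon array, against 18% of all genes. The share of all genes higher in 4 of 4 pairs was not counted. Among the 22 genes well above background on all 8 arrays, 11 were called. Mybpc1, counted among the 21 and the slow fibre genes, was well above background on no colon array and passed the filter through rectum alone. Without it, 20 of 34 were called. Shares of all genes were not counted for these subsets. Myh4, Tnnt3, Mb, Myoz1, Tmod4 and Txlnb, also among the 21, were well above background on 1 colon array. Their 4 rectum arrays alone would have passed them through the filter. Pvalb was well above background on 1 colon array and 3 rectum arrays. Since most colon values of these genes were not well above background, the sizes and p-values of their differences are uncertain. Of the 21 calls, 11, Mybpc1 among them, held when each mouse group was left out in turn. The count was 23 without the WT control pair, 30 without the WT stress pair, 14 without the IL18ko control pair and 13 without the IL18ko stress pair. Over all probes the number called also changed, as given at the end. It rose without the WT stress pair and fell without the WT control or the IL18ko control pair. The share over genes was not counted for these fits.

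**Figure D2:**
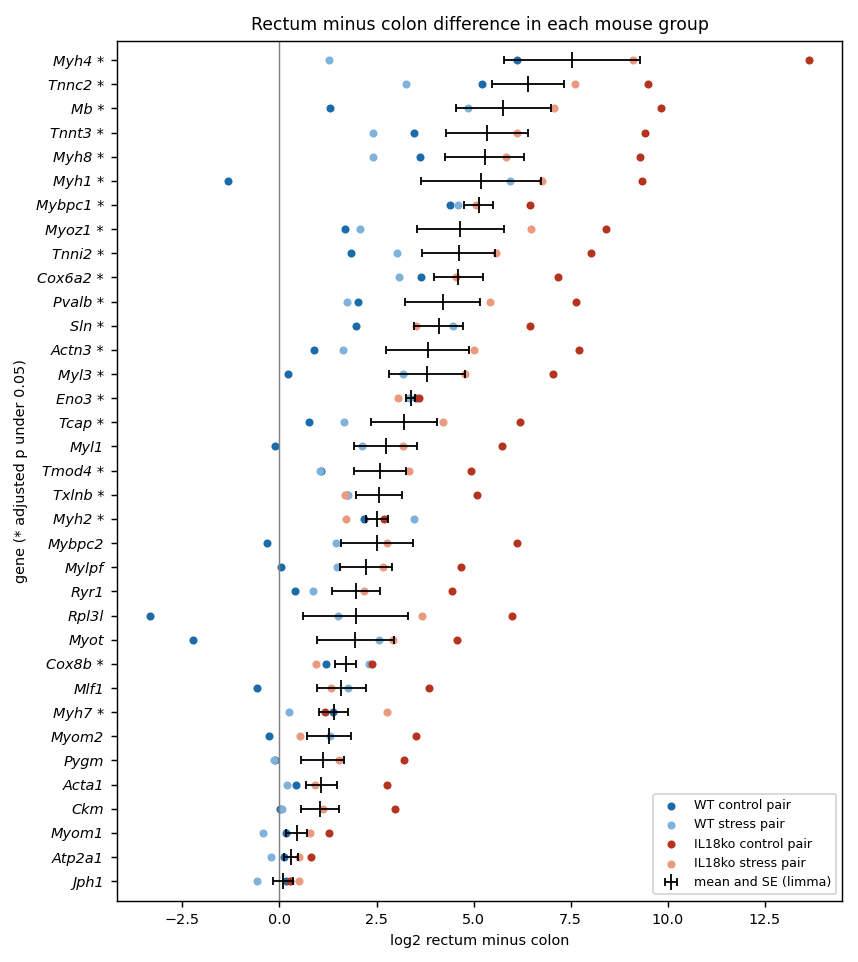
Rectum minus colon difference in log2 level (x axis) for the 35 tested genes (y axis, sorted by mean), with 1 point for each of the 4 mouse groups and the mean with its standard error from limma in black; an asterisk marks an adjusted p under 0.05. The IL18ko control pair lies far to the right for most genes, up to 13.65 in Myh4, whereas the 4 points of Eno3 lie between 3.06 and 3.59. The colon signal in that Myh4 pair was not well above background.

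Among fast fibre genes, the myosin heavy chains are the motors, and their fast and perinatal genes Myh2, Myh1, Myh4 and Myh8 stand in this order on the plus strand of chromosome 11. Myh4, the heavy chain of the fastest fibres (IIb), was at -7.70, -0.27, -8.32 and -7.36 in colon and at -1.57, 1.01, 5.32 and 1.75 in rectum. It was well above background on 1 colon array, that of stressed WT mice, and on all 4 rectum arrays, and within every mouse group rectum was the higher. Its difference of 7.54 ± 1.76 (SE, 4 pairs; adjusted p = 0.0216, limma) covered pairs from 1.28 to 13.65, and without the WT control pair it was no longer called. Except in stressed WT mice, the colon value of each pair was not well above background, so the size of those differences is uncertain.

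Myh1, the IIx heavy chain, was at -2.89, -5.58, -6.07 and -5.53 in colon and at -4.20, 0.36, 3.25 and 1.24 in rectum. WT control mice were the exception, with a rectum minus colon value of -1.31, and the other 3 groups had rectum higher, up to 9.33. The call (5.18 ± 1.54, adjusted p = 0.0488, limma) was lost without either IL18ko pair and under 5 other settings, among them the normexp background and the deposited ratios. Myh8, the perinatal heavy chain, which some specialised adult muscles keep, was at -4.50, -0.52, -3.66 and -2.81 in colon and at -0.90, 1.89, 5.63 and 3.01 in rectum. Here the stressed WT colon array lay above the WT control rectum array. The difference was 5.28 ± 1.02 (adjusted p = 0.011) and held without each pair in turn.

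Myh2, the IIa heavy chain of fast oxidative fibres, had a flatter course, at -3.51, -3.46, -2.44 and -1.55 in colon and at -1.34, 0.00, 0.26 and 0.16 in rectum. All rectum arrays were above all colon arrays, with a difference of 2.51 ± 0.27 (adjusted p = 0.00106, limma). The stressed WT colon array, high for Myh4 and Myh8, was not high for Myh2. Myh7, the slow and cardiac heavy chain, was at -4.88, -4.01, -4.61 and -4.27 in colon and at -3.49, -3.76, -3.44 and -1.50 in rectum. It stood alone in being highest in stressed IL18ko rectum, and its difference of 1.39 ± 0.38 (adjusted p = 0.0361) was lost without any pair other than the WT stress pair. Messages of heavy chains are alike in sequence, and cross-hybridisation between their probes was not tested. A second Myh8 probe was well above background on no array, and a second Myh1 probe on 2.

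**Figure D3:**
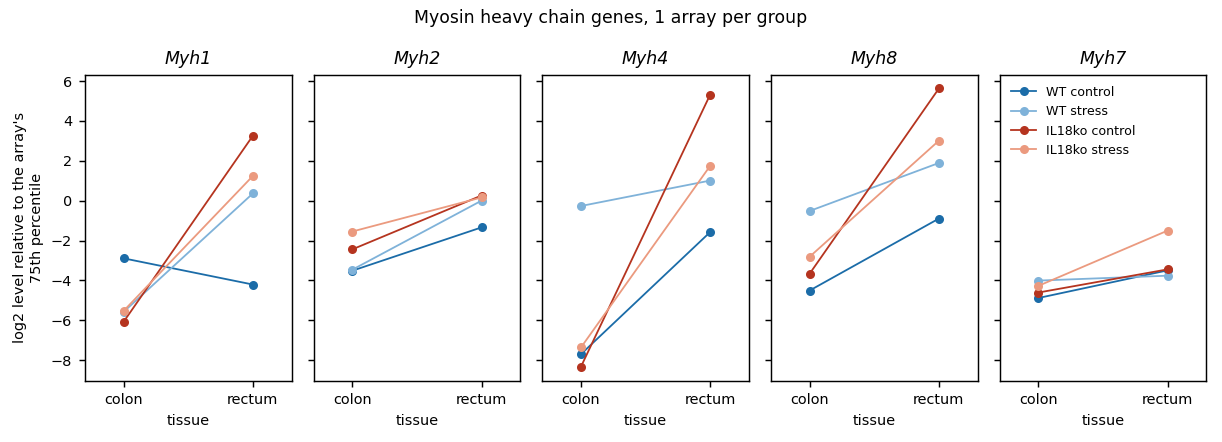
Log2 level relative to the array's 75th percentile (y axis) of the 5 myosin heavy chain genes in colon and rectum (x axis), with 1 line for each mouse group and 1 array at each point. Myh1, Myh4 and Myh8 climb steeply in IL18ko control mice, Myh2 climbs by 1.71 to 3.46 in each mouse group, and the highest rectum point of Myh7 is that of stressed IL18ko mice, at -1.50.

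Troponin turns calcium into contraction, and its 3 fast subunit genes rose together. Tnnc2, the calcium-binding subunit, was at -4.98, -0.81, -4.14 and -4.29 in colon and at 0.25, 2.46, 5.35 and 3.33 in rectum. Every rectum array was above every colon array, with a difference of 6.40 ± 0.92 (SE, 4 pairs; adjusted p = 0.00335, limma). Tnni2, the inhibitory subunit (4.62 ± 0.94, adjusted p = 0.0132), and Tnnt3, the tropomyosin-binding subunit (5.35 ± 1.06, adjusted p = 0.012), followed, and the calls of all 3 held without each pair. Actn3, the alpha-actinin of fast Z-discs (3.81 ± 1.07, adjusted p = 0.0409), and Pvalb, the calcium buffer parvalbumin (4.20 ± 0.97, adjusted p = 0.0211), also rose. The calls of both were lost without the IL18ko stress pair, and that of Actn3 also without the IL18ko control pair and under normexp. On the colon arrays, Tnnt3 and Pvalb were well above background in stressed WT mice alone, so the size of their differences is uncertain.

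The fast light chain genes missed the threshold narrowly. Myl1, the alkali light chain, had a difference of 2.73 ± 0.82 (adjusted p = 0.0505, limma), and Mylpf, the regulatory light chain whose promoter is shown, had 2.22 ± 0.67 (adjusted p = 0.0504). In WT control mice Mylpf was at -2.13 in colon and -2.09 in rectum, whereas IL18ko control rectum was at 2.52. Mybpc2, the fast myosin-binding protein C, had 2.51 ± 0.92 (adjusted p = 0.0893). Casq1, the calcium store of the fast sarcoplasmic reticulum, was well above background on 3 rectum arrays, at -2.98, -2.48 and -4.24 in stressed WT, control IL18ko and stressed IL18ko mice. On no colon array was it well above background, and its rectum mean was at least 4.22-fold higher; for such genes the bound sets the rectum mean against the lowest signal well above background on each colon array, or the probe's own signal where higher.

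Atp2a1, the fast fibre calcium pump, gave unlike answers by probe. The brighter probe was at -1.80, -1.58, -1.71 and -1.80 in colon and at -1.69, -1.81, -0.90 and -1.31 in rectum, a difference of 0.30 ± 0.18 (adjusted p = 0.279, limma). The dimmer probe, looked at after the values were seen, was at -8.46, -5.41, -8.53 and -8.01 in colon and at -8.21, -3.67, -0.07 and -2.21 in rectum, which gave 4.06 ± 1.28 (adjusted p = 0.0578). Neither probe was called, but the dimmer one was, like Myh4, highest in IL18ko control rectum and raised in stressed WT colon. It was well above background on 4 arrays.

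The slow fibre genes were fewer and less alike. Mybpc1, the slow myosin-binding protein C, was well above background on all 4 rectum arrays, at -3.87, -3.92, -1.91 and -3.16, and on no colon array. Its rectum level was at least 8.57-fold higher. Mybpc1 passed the filter of 4 arrays through rectum alone, and its colon values, from -8.51 to -8.23, were not well above background. No p-value is therefore given for it. Myl3, the slow and ventricular light chain, was at -4.55, -3.42, -4.84 and -4.71 in colon and at -4.33, -0.25, 2.20 and 0.08 in rectum (3.80 ± 0.97, adjusted p = 0.0297). That call was lost without either IL18ko pair. Myl3 thus had the course of the fast genes on this probe, while a second probe was at -3.67, -3.00, -3.54 and -2.81 in colon and at -2.48, -2.29, -2.19 and -2.66 in rectum. The second probe's difference was smaller (0.85 ± 0.22, adjusted p = 0.0292).

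Among the other parts of the sarcomere, Myoz1, Tcap and Tmod4 rose and the M-line genes did not pass. Myoz1, a Z-disc protein of fast fibres, was at -7.11, -4.43, -7.36 and -7.91 in colon and at -5.43, -2.35, 1.04 and -1.43 in rectum (4.66 ± 1.13, adjusted p = 0.0245, limma). Tcap, the titin cap (3.21 ± 0.84, adjusted p = 0.0321), and Tmod4, which caps thin filaments (2.59 ± 0.66, adjusted p = 0.0298), rose as well. All 3 calls were lost without either IL18ko pair. On the colon arrays, Myoz1 and Tmod4 were well above background in stressed WT mice alone, so the size of their differences is uncertain. Acta1, the skeletal alpha-actin, was at 1.17, 1.28, 1.04 and 1.79 in colon and at 1.59, 1.47, 3.82 and 2.71 in rectum. Both WT rectum arrays lay below the stressed IL18ko colon array, and the difference of 1.08 ± 0.41 did not pass (adjusted p = 0.096). Neither M-line gene passed, with 0.45 ± 0.27 for Myom1 (adjusted p = 0.264) and 1.28 ± 0.56 for Myom2 (adjusted p = 0.139). Myom1 was at -1.03, -1.42, -1.22 and -0.96 in colon and at -0.87, -1.85, 0.05 and -0.18 in rectum, so its lowest value of all was in stressed WT rectum. Myot, a Z-disc protein, had 1.95 ± 0.999 (adjusted p = 0.195), with WT control rectum at -7.61 and not well above background. Ttn, the giant spring of the sarcomere, was well above background on 3 rectum arrays and no colon array, with a rectum level at least 3.56-fold higher.

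Of the 3 calcium and triad genes tested, Sln was the one called. Sarcolipin, a small inhibitor of the calcium pump, was at -4.06, -4.10, -3.70 and -3.00 in colon and at -2.09, 0.37, 2.75 and 0.52 in rectum. No rectum array overlapped with colon, and the difference was 4.10 ± 0.64 (SE, 4 pairs; adjusted p = 0.00461, limma), held without each pair. Unlike Myh4 and Tnnc2, Sln was not raised on the stressed WT colon array. Ryr1, the calcium release channel, had 1.97 ± 0.63 (adjusted p = 0.0594), with IL18ko control rectum at -0.54 and the other 7 arrays between -5.28 and -2.73. Jph1, a junctophilin that holds the triad together, was close to background on every array, from -6.77 to -5.50, with 0.09 ± 0.26 (adjusted p = 0.82).

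The metabolic genes included the steadiest difference of all. Eno3, the muscle form of enolase, was at 2.22, 2.54, 2.22 and 2.70 in colon and at 5.74, 5.88, 5.81 and 5.77 in rectum. Its 4 rectum values lay close together, and the difference was 3.38 ± 0.12 (SE, 4 pairs; adjusted p = 1.23e-05, limma). Mb, the oxygen store myoglobin, was at -6.26, -5.14, -7.07 and -6.93 in colon and at -4.96, -0.28, 2.75 and 0.14 in rectum. Its pairs ranged from 1.30 to 9.82 around a mean of 5.76 ± 1.22 (adjusted p = 0.0153), and stressed WT colon was the single colon array on which it was well above background.

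Muscle forms of 2 cytochrome oxidase subunits rose, Cox6a2 by 4.61 ± 0.62 (adjusted p = 0.00256) and Cox8b, which brown fat also uses, by 1.71 ± 0.27 (adjusted p = 0.00479, limma). Ckm, the muscle creatine kinase, was at -0.70, -0.90, -0.998 and -0.72 in colon and at -0.69, -0.83, 1.98 and 0.40 in rectum. In WT mice rectum exceeded colon by 0.01 and 0.06, in IL18ko mice by 2.98 and 1.11, and the difference of 1.04 ± 0.48 did not pass (adjusted p = 0.155). Pygm, the muscle glycogen phosphorylase, had the same course, with WT rectum at -4.26 and -4.41, IL18ko rectum at -0.87 and -2.55, and an adjusted p of 0.181. Ampd1, the muscle AMP deaminase, was well above background on 3 rectum arrays and no colon array, at least 2.65-fold higher. Of the remaining genes, Txlnb rose (2.57 ± 0.59, adjusted p = 0.0206), a call lost without the WT control pair. Txlnb was well above background on 1 colon array, so the size of its difference is uncertain. Rpl3l, the ribosomal protein of striated muscle, had 1.96 ± 1.36 and Mlf1 had 1.59 ± 0.63, and neither passed.

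The genes were then set side by side within rectum, where each value is a difference between 2 arrays with no test; a fit to the rectum arrays alone was not run. Counts cover genes well above background on both arrays. IL18ko control rectum exceeded WT control rectum in 32 of 32 genes, by a median of 4.21 (18.5-fold) with quartiles of 2.16 and 6.11; with the normexp background the median was 3.26. At least 2-fold higher were 27 of the 32 and at least 2-fold lower 0, against 1.64% of all genes higher. Mb differed most (7.72) and Myh7 least (0.05), and the median was 5.91 in 11 fast fibre genes and 1.97 in 3 slow fibre genes. Between stressed mice the same genotype difference was smaller, with a median of 0.76, 13 of 37 genes at least 2-fold higher against 3.6% of all genes, and a value of -1.26 for Casq1.

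Stress minus control was mostly above 0 in WT rectum and below 0 in IL18ko rectum. In WT rectum, 20 of 31 genes were at least 2-fold higher after isolation and 0 lower, with a median of 1.86 (3.62-fold; 1.16 on the log2 scale with normexp), against 2.32% of all genes higher. Mb (4.69) and Myh1 (4.57) differed most, and Myom1 had -0.98. In IL18ko rectum, 32 of 38 genes were at least 2-fold lower after isolation, against 0.855% of all genes, with a median of -2.03. Myh4 had the largest such difference (-3.57), and Myh7 was 1.94 higher. These 4 differences share arrays, so they are not independent of one another.

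**Figure D4:**
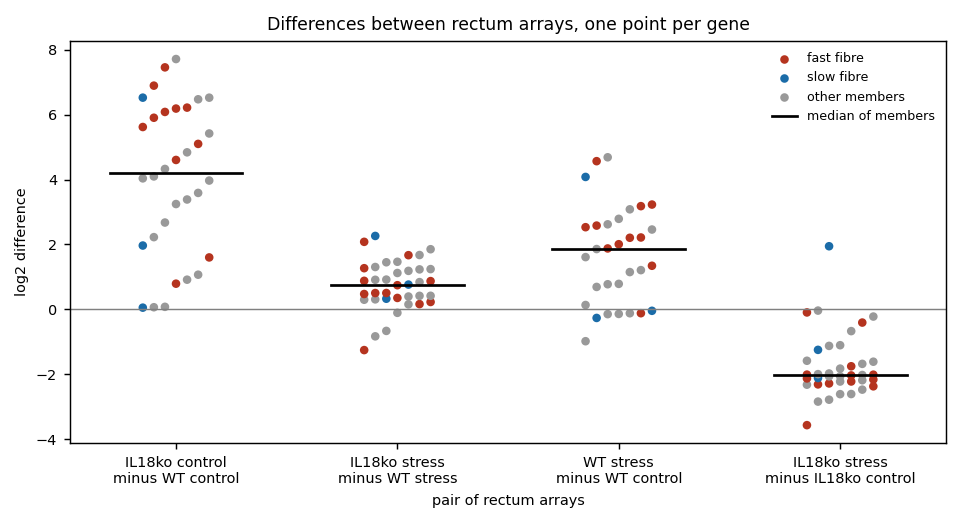
Log2 difference (y axis) between the 2 rectum arrays named on the x axis, with 1 point for each skeletal muscle gene well above background on both (32, 37, 31 and 38 genes), fast fibre genes in red, slow in blue and others in grey; bars are the medians over genes. The medians are 4.21, 0.76, 1.86 and -2.03, and the lone high slow gene in the last column is Myh7.

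The array of IL18ko control rectum was the highest of all 8 for 32 of 35 genes, against 5.88% of all genes. Stressed IL18ko rectum held the second highest level of 29 of 35, for which no share of all genes was counted. The exceptions to the highest array were Eno3, highest in stressed WT rectum, Myh7, highest in stressed IL18ko rectum, and Jph1, highest in stressed WT colon. Within rectum, 24 of 35 genes followed the order WT control, WT stress, IL18ko stress, IL18ko control, against 3.57% of all genes; this order was named after the values were seen. Centred on each gene's own mean, the median gene was at -1.68, -0.74, -1.74 and -1.41 in colon and at -0.66, 1.26, 3.81 and 1.81 in rectum. The fast fibre genes spanned more than the metabolic ones, from -2.84 to 4.73 against -1.40 to 2.50. Summed intensity of the fast fibre genes, in units of the 75th percentile, was 1.47 to 4.03 in colon and 3.79, 21.5, 169.7 and 33.6 in rectum.

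The rectum minus colon difference varied among the mouse groups. In WT control mice 8 of 24 genes were at least 2-fold higher in rectum (5.14% of all genes), with a median of 0.32 and Myh1 lower. In stressed WT mice it was 24 of 31 (9.26% of all genes; median 1.76), in IL18ko control mice 22 of 24 (5.49%; median 4.15) and in stressed IL18ko mice 21 of 26 (4.88%; median 2.78). Among the genes counted, Tnnc2 had the largest difference in 3 of these 4 groups, at 5.23 in WT control, 9.49 in IL18ko control and 7.62 in stressed IL18ko mice.

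Across all 8 arrays, the effects of genotype and of housing were fitted together with tissue, which leaves 4 residual degrees of freedom. On its brightest probe, no skeletal muscle gene was called for genotype by limma (0 of 35, against 0.0629% of all genes called higher). An unadjusted p under 0.05 was found for 7 of 35, against 5372 of 26265 probes in all. The median difference, IL18ko minus WT, was 0.96. Myh2 came nearest, with 1.19 ± 0.26 (adjusted p = 0.0891), and was called without the stressed WT rectum array (1.46, adjusted p = 0.0154). Myh2 has 2 further probes, and the dimmest of the 3 was called higher in IL18ko mice in the same fit (2.03 ± 0.20, adjusted p = 0.0197, limma). That probe was at -7.91, -8.24, -6.06 and -5.94 in colon and at -4.65, -4.29, -2.24 and -2.72 in rectum, so both IL18ko arrays were above both WT arrays in each tissue. It was well above background on all 4 rectum arrays and on 2 of the 4 colon arrays, and it was singled out after its values were seen. The third probe was not called (1.09 ± 0.19, adjusted p = 0.0781, limma). A fit to the 4 means over both tissues, which has 1 residual degree of freedom, called 16 of 35 on their brightest probe. Over all probes it called 6.15% higher, and the share over genes was not counted. The median of 0.96 became 0.12 without the IL18ko control rectum array and 0.30 without the WT control rectum array. For housing, limma called 0 of 35 (0% of all genes), with a median of 0.34, stress minus control. An unadjusted p under 0.05 was found for 0 of the 35, against 898 of 26265 probes in all. The fit to tissue means called 23 probes for housing.

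The fits that let genotype act differently by tissue or by housing have 2 and 3 residual degrees of freedom. For genotype by tissue, limma called 0 of 35 (0% of all genes), while 23 had an unadjusted p under 0.05, against 752 of 26265 probes in all. The median interaction over the 35 was 2.91, larger in rectum, and 32 of the 35 shared the lowest adjusted p of 0.832 (limma). Pygm had the lowest unadjusted p, 0.00218. For genotype by housing, limma called 0 of 35 (0% of all genes), with 0 at an unadjusted p under 0.05 and a median of -1.97. In all, 328 of 26265 probes had such a p, and shares over genes were not counted for unadjusted p-values. The directions of housing in rectum are a description of 4 pools.

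In colon the array of stressed WT mice held the most of these messages. Of 32 genes well above background there, 12 were at least 2-fold above every other colon array, against 0.311% of all genes. Myh4 stood 7.09 above the next colon array, Tnnc2 3.33, Pvalb 3.21, Myoz1 2.69, Tnnt3 2.45, Myh8 2.29 and Tnni2 2.05, and the remaining 5 (Tcap, Actn3, Mb, Myl3 and Cox6a2) 1.06 to 1.36. Of these 12, 6 are fast fibre genes. For Myh4, Pvalb, Myoz1, Tnnt3 and Mb no other colon array was well above background, so the size of those gaps is uncertain. Sln, Myh1 and Myh2 were not high on that array, at -4.10, -5.58 and -3.46. Myh1 and Rpl3l were instead highest in WT control colon, at -2.89 and -3.28.

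How closely each gene followed the rest is described by its Pearson correlation with the median of the other tested genes over the 8 arrays, values that share arrays and tissue. The median r was 0.940, and 21 of 35 genes were above 0.9, led by Tcap, Mb and Actn3 at 0.987. Jph1 (0.147), Myom1 (0.566), Myh7 (0.639), Rpl3l (0.710), Eno3 (0.790) and Myh2 (0.821) followed least. Outside the set, of 1407 genes that spanned at least 2 log2 units, the most alike were Pgam2, the muscle phosphoglycerate mutase (r = 0.993), Trim54 (0.983), Klhl31 (0.975), Adssl1, the muscle adenylosuccinate synthase (0.973), Stac3, a partner of the calcium channel of the triad (0.966), Ankrd23 (0.964), Cacng1, a subunit of that channel (0.937), Zfp385b (0.926), Usp13 (0.917) and Pde4dip (0.910). Pgam2 was at -5.76, -4.03, -5.37 and -4.89 in colon and at -3.75, -2.27, 1.02 and -1.23 in rectum, with the same high array and the same raised colon array as Tnnc2.

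Other genes of muscle were read from separate lists. Beside each count of rises, 15.1% of all tested genes were called higher in rectum. The share called lower is not given here, so counts of falls are not read as particular to a list. Of 5 further slow fibre genes tested, 4 rose in rectum and 0 fell (median 0.89). Tnni1, the slow troponin inhibitor, was at 0.58, 0.71, 0.21 and 0.53 in colon and at 3.83, 3.53, 3.31 and 3.48 in rectum (3.03 ± 0.11, adjusted p = 1.39e-05, limma). Like Eno3, it rose by nearly the same amount in each mouse group and was not highest in IL18ko control mice. Fhl1 (1.12 ± 0.19), Tnnt1 (0.78 ± 0.14) and Casq2 (0.89 ± 0.16) rose less, and Tnnc1, the slow and cardiac troponin C, had 0.03 ± 0.21. Of 7 further fast fibre genes, which include widely used enzymes such as Aldoa, Pgam2 alone rose (3.45 ± 0.73, adjusted p = 0.015), and 0 fell (median 0.32).

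Of 20 other striated muscle genes, 6 rose and 2 fell (median 0.42), among them the atrophy ligase Fbxo32 (1.99 ± 0.15) and Apobec2 (3.36 ± 0.23). Of 7 genes used mainly in heart, 2 rose and 2 fell. Tnnt2, the cardiac troponin T, rose by 5.40 ± 0.19 (adjusted p = 1.32e-05, limma) and was at 2.71, 1.76, 3.12 and 3.11 in rectum, whereas Myl7, the atrial light chain, fell by 3.91. Among myogenic regulators, Myf6, which is kept in adult fibres, was well above background on the 2 IL18ko rectum arrays, at -2.58 and -4.76, and Pax7 of the satellite cells on none. Of 4 neuromuscular junction genes tested, Dok7 rose (1.63 ± 0.15) and Chrnb1 fell by 0.99, and of 3 developmental muscle genes 2 fell and 0 rose. The share of all tested genes called higher in rectum was 15.1%, and that called lower is not given here.

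Markers of other cell types were read on the same arrays. Of all tested genes, 15.1% were called higher in rectum. The share called lower is not given here, so the counts of falls are not read as particular to these cell types. For smooth muscle, 13 of 14 listed genes were tested, 0 rose and 2 fell (median -0.04), and their summed intensity was 524 to 787 times the 75th percentile in colon and 463 to 694 in rectum. Within rectum the sum was 559 and 463 in control and stressed WT mice, and 680 and 694 in control and stressed IL18ko mice. Both IL18ko rectum arrays were thus above both WT ones. Over all 8 arrays, limma called 0 of the 13 for genotype (median 0.56, IL18ko minus WT). For adipocytes, 7 of 10 fell and 0 rose (median -1.23), with sums of 48.6 to 85.2 in colon and 27.9 to 57.6 in rectum, and Ucp1 was well above background on no array. Within rectum their centred median was -1.67 and -1.60 in WT and 0.29 and 0.00 in IL18ko mice, so among the rectum arrays it too was highest in IL18ko control mice. For squamous epithelium, the lining of the anal canal, 5 of 8 rose and 0 fell (median 1.75), with sums of 3.36 to 4.33 in colon and 5.71 to 9.23 in rectum; Ivl, Dsc3, Dsg3 and Sprr1b were well above background on no array. Its centred median in rectum was 0.38, 0.17, 0.99 and 1.63, highest in stressed IL18ko mice and not on the array where the skeletal muscle genes peaked. The part of these cell types in the skeletal muscle differences was not tested.

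**Figure D5:**
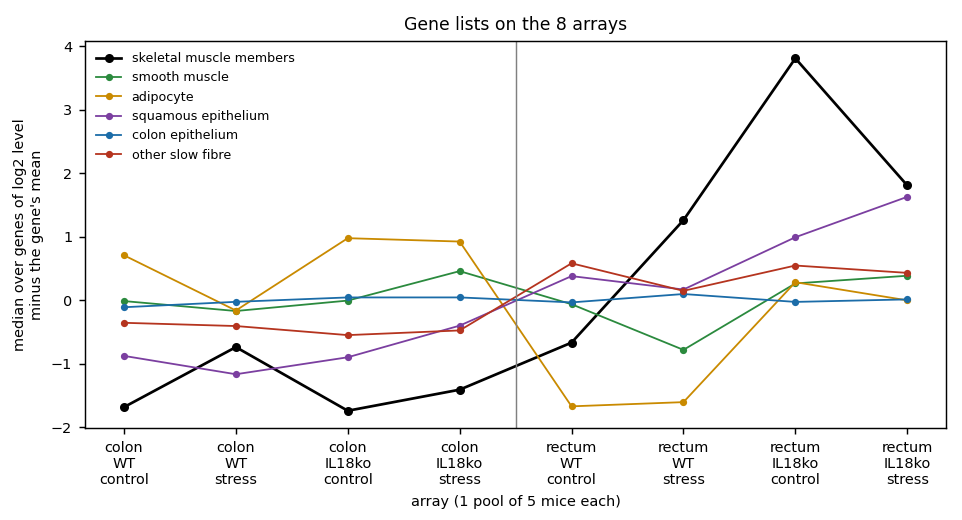
Median over the genes of a list of log2 level minus each gene's mean over the 8 arrays (y axis), for each array (x axis, 1 pool of 5 mice each; colon left and rectum right of the line). Skeletal muscle genes peak at 3.81 in IL18ko control rectum, while smooth muscle and colon epithelium genes stay within 0.78 of their mean.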

How the data were processed

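Total RNA of 8 pools was labelled with Cy3 and hybridised to 1-colour whole mouse genome arrays, per the labels' protocols. The intensity per spot was background-corrected by the scanner software, Feature Extraction 9.5.1.1, per the file headers. The authors also deposited a linear ratio of each array to that of WT control colon, with a scaling not given in the sources used here; in log2 it correlated with the scanner ratios at r = 0.995 to 1.00 over 18277 probes, and its columns had medians from -0.03 to 0.16. Its direction was that of the scanner ratios.

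Outlier spots were dropped and spots averaged per probe (40963 of 41174 probes kept, 22850 named through their transcript accession and RefSeq). Log2 intensity was set relative to each array's 75th percentile. The brightest probe stood for a gene, and 26265 probes that passed background on 4 or more of the 8 arrays were tested with limma 3.58.1 in R 4.3.3, with a variance trend and Benjamini-Hochberg adjustment over all of them. Tissue was tested over 4 rectum minus colon pairs with the mouse group as a block, and genotype and housing in 1 additive fit over 8 arrays. Pools are single, so p-values measure the spread among these arrays, and with 8 arrays precision is limited. Mouse groups sat at the same place on both slides, so place and group cannot be told apart.

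The genes, the lists of other genes, the tests and the rule for naming genes were chosen with earlier results of these data known. The rule gives all 8 values for the heavy chains, Sln, Acta1, Ckm, Mb and the 3 largest and 3 smallest tissue differences; others were added after values were seen. From each further list it allows the 5 brightest genes, and from outside the 10 most alike. Alternatives were other scalings and background corrections, the deposited ratios, other filters, designs and probes, and leaving out arrays or pairs. Each fit was also run on data simulated from its own model. That checks the code, and cannot bear on single pools or on values near background.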

Additional observations from a re-analysis of the deposited data

Results flagged for a closer look

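Effects with opposite signs under the same contrast were looked for in the median of the 35 tested genes and in single genes. With 1 array per group these differences were not tested within a tissue, and the interaction fits called 0 genes. How many of all tested genes had opposite signs was not counted. The counts of opposite signs below are therefore not read as particular to the skeletal muscle genes.

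In rectum, stress minus control was 1.86 for the median gene in WT and -2.04 in IL18ko mice, a gap of 3.90. Myh4 had 2.58 and -3.57, a gap of 6.15, and Tnnc2 had 2.21 and -2.02, a gap of 4.23. Signs were opposite in rectum for 28 of 35 genes.

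In colon the same contrast had opposite signs for 12 of 35 genes. Tnnc2 had 4.17 in WT and -0.15 in IL18ko mice, a gap of 4.32.

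IL18ko minus WT, averaged over housing, was 2.67 in rectum and -0.15 in colon for the median gene, a gap of 2.82. For Myh4 it was 3.82 in rectum and -3.86 in colon, a gap of 7.68; in colon that gene was well above background on the stressed WT array alone. These averages had opposite signs for 21 of 35 genes, and for 11 of 35 both differences in rectum had one sign and both in colon the other.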

How the results depend on the processing

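Between tissues, the number of skeletal muscle genes called was 18 to 24 of 35 (20 of 38 with no filter on dim probes) under other scalings, the normexp background, a common floor, no variance trend and no block. It was 11 of 22 with the filter on all 8 arrays and 8 of 18 in the deposited ratios. Over 285 values of single genes under these settings, 262 kept direction and call, 14 lost the call, 8 gained it and 1 (Jph1, not called) changed sign; leaving out a pair gave 107, 18, 14 and 1 of 140. Calls of Myh1 were lost under 5 settings, of Actn3 under 3, of Myh7 under 2 and of Pvalb, Myh4, Tmod4 and Txlnb under 1; Myl1, Mylpf and Ryr1 gained calls. Among all probes, 7220 were called, and leaving out 1 pair gave 3509 (WT control pair) to 10716 (WT stress pair), with 3796 without the IL18ko control pair. For genotype, 32 probes were called, against 77 with quantile normalization, 61 with median centring, 49 with normexp, 18 in the deposited ratios, 19 without the trend and 3078 in the fit to 4 tissue means; without 1 array the count was 6 (IL18ko control rectum) to 3621 (stressed WT rectum). Housing called 23 probes in the fit to tissue means and 0 in the additive fit. Genotype by tissue called 0, but 69 to 1972 without 1 array, highest without IL18ko control rectum. Under normexp, IL18ko minus WT control rectum was 3.26 and stress minus control in WT rectum 1.16 for the median gene. With the 22 genes well above background everywhere, IL18ko control colon was at -1.07. The labels give no replicate numbers, and the tissue fit was paired by mouse group; without that block 7373 probes and 22 of the genes were called. The cause of these changes was not tested. Normexp used the median signal and local background. Many colon values are near background, which limits how far down they can be measured.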
